A study of Homo sapiens with 8 samples.

Results

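The 6 human DNA topoisomerase genes TOP1, TOP1MT, TOP2A, TOP2B, TOP3A and TOP3B were followed by their read counts in multiple myeloma (MM) cells given the CDK7 inhibitor THZ1. They were chosen by gene symbol, through the symbols that the deposited JJN3 comparison table pairs with Ensembl gene IDs, and are 6 of the 63677 genes counted. RNA sequencing covered the MM lines JJN3 and H929, each with DMSO, the vehicle, or with THZ1 at 50 nM for 24 h. Each line and treatment had 2 libraries, 8 in all, with total counts of 17476443 to 19194371 on genes. Both lines are long-cultured derivatives of single tumours, JJN3 carrying an activated MAF gene and H929 an activated FGFR3 gene through translocations. THZ1 binds CDK7 covalently and blocks a kinase that RNA polymerase II needs to start and continue transcription. Nothing in the labels says that replicate libraries came from separate cultures, so p-values measure only the spread between these libraries, which may be technical.

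DNA topoisomerases relieve the twisting strain and the links that form when the double helix is opened, copied or transcribed. Type I enzymes cut a single strand and type II enzymes cut both, and each stays covalently attached to the cut end until it reseals the break. TOP1 works ahead of transcribing polymerases and TOP1MT does the same in mitochondria, TOP2A serves mitosis and chromosome separation in dividing cells, TOP2B is present in dividing and resting cells and acts at promoters and loop anchors, TOP3A resolves recombination intermediates with the BLM helicase, and TOP3B acts on RNA as well as DNA. TOP2B was among the candidate superenhancer genes of the study, which were chosen in part for being sensitive to THZ1.

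The labels were checked first. All 8 plasma cell marker genes had counts in every group. Their summed level is given as CPM, for this sum scaled to the total counts of the library without TMM factors. It was 1390 to 2120 CPM in JJN3. Under the H929 labels it was 1760 to 1920 CPM for DMSO and 7070 to 7160 CPM for THZ1. FGFR3 had 0 to 2 counts in JJN3, while under the H929 labels its counts were 45 and 285 for DMSO, and 14117 and 13411 for THZ1. MAF ran the other way, with 18006 and 16310 counts under the label H929 DMSO and 2729 and 2942 under H929 THZ1. The other listed line marks did not all follow. ITGB7, listed with MAF, went opposite to it, at 14795 and 14207 counts under H929 DMSO and 76538 and 72695 under H929 THZ1. NUAK1, also listed with MAF, had 665 and 648 against 569 and 582. WHSC1, listed with FGFR3, had 6544 and 7026 against 15702 and 16276. The share of lambda genes in light chain V counts was 100% and 98.0% under the label H929 DMSO and 0.211% to 0.212% under H929 THZ1, a property that is fixed within a plasma cell clone. The H929 DMSO library 2 also held 597 kappa counts and 174 SLAMF7 counts, against 3 and 2 in library 1. CD3E had 640 and 650 counts under the label H929 THZ1 and ITGAM 607 and 463 under H929 DMSO, while the other T cell and myeloid markers had at most 24 counts in any library. The DMSO and THZ1 libraries labelled H929 thus held different light chains. Pearson's r of log2 CPM over genes was 0.777 to 0.812 between them, and 0.966 to 0.972 between DMSO and THZ1 in JJN3. Between the DMSO libraries of JJN3 and those labelled H929 it was 0.795 to 0.81. A difference under the H929 labels therefore cannot be split into treatment and identity of the cells. Every value for these libraries is given as labelled, and JJN3 carries the comparison of treatments.

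The study listed a pair of quantitative PCR primers for TOP2B. They are shown because they mark a stretch where TOP2B can be told from its close relative TOP2A. By quantitative PCR normalized to GAPDH, the paper describes its selected genes as highly sensitive to THZ1 in JJN3 (50 nM, 24 h). Each primer matched GRCh37 exactly at a single place, the forward primer at chr3:25665837-25665858 on the minus strand and the reverse primer at chr3:25665193-25665214 on the plus strand. Both lie in exons of TOP2B, in 14 of its 26 annotated transcripts, and bound a product of 116 bases in the transcript. Below each primer stands the closest stretch in TOP2A transcripts, with capitals at the bases that differ from the primer, 4 in the forward and 8 in the reverse.
TOP2B forward primer: ggtcagtttggaactcggcttc
closest TOP2A stretch, forward: ggtcagtttggTacCAggctAc
TOP2B reverse primer: aggaggttgtcatccacagcag
closest TOP2A stretch, reverse: aTgaTAttgtTaATcTcagcaT
Within exons, reads of the paralogs can be told apart as well. Of the 50-base windows inside TOP2A exons, 0 of 4659 had another exact copy in the genome, and 99 of 17469 windows did inside TOP2B exons (0.567%). Windows across exon junctions, and exons shorter than 50 bases, were not searched. The reads were 50 bases long and only uniquely mapping reads were kept.

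Both type II genes changed in JJN3, in opposite directions. Gene levels below are given as CPM scaled to library size with TMM factors. TOP2B (ENSG00000077097, GRCh37 chr3:25639469-25706400, minus strand) was at 418 and 400.4 CPM in the DMSO libraries and at 607 and 609.8 CPM in the THZ1 libraries. TOP2A (ENSG00000131747, GRCh37 chr17:38544777-38574148, minus strand) was at 483 and 485 CPM with DMSO and at 319 and 332 CPM with THZ1. Every THZ1 library lay above both DMSO libraries for TOP2B and below both for TOP2A. TOP2B counts thus rose in the line, dose and time for which the paper describes its selected genes, as a group, as sensitive to THZ1. The log2 fold change was 0.59 for TOP2B (SE 0.087, adjusted p = 0.00017) and -0.56 for TOP2A (SE 0.084, adjusted p = 0.000202) by edgeR's quasi-likelihood test, adjusted over 13984 genes by the Benjamini-Hochberg method. Calls of lower or higher needed an adjusted p under 0.05 together with a log2 change of more than 0.5, limits taken from the study. With total counts in place of TMM factors the median of all genes moved by about 0.1, to -0.10, and TOP2B had a log2 fold change of 0.49, below the fold limit, or 0.59 relative to that median. Counts are relative to the library, so a rise or fall here is against the other transcripts, with no spike-in, and fewer cells that express a gene cannot be told apart from less RNA per cell.

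The ratio of the 2 type II genes within a library does not depend on scaling. TOP2B had 0.865 and 0.826 counts for each TOP2A count in the JJN3 DMSO libraries and 1.90 and 1.84 in the JJN3 THZ1 libraries. In the libraries labelled H929 the ratio was 0.443 and 0.407 with DMSO and 0.588 and 0.600 with THZ1. The THZ1 libraries were above the DMSO libraries under both line labels. As a ratio of raw counts it passed 1 in the JJN3 THZ1 libraries alone. Per kb of annotated exon (union of exons) it was 0.650 and 0.628 there, so passing 1 depends on the gene length used. An exact permutation test of 2 libraries against 2 cannot give a two-sided p below 0.333, and no other test of the ratio was run, so it is given as a description. The plot of the 3 within-library ratios shows the pairs side by side.

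**Figure D1:**
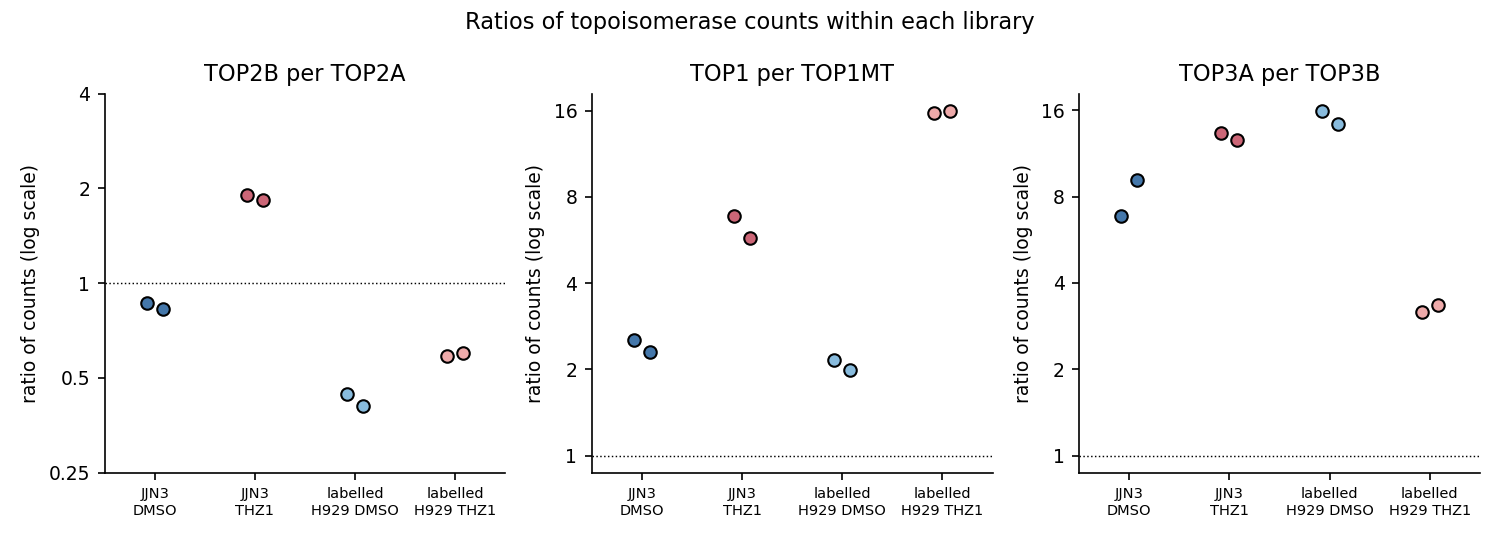
Ratio of read counts between paired topoisomerase genes in each of the 8 libraries (points, log scale), for TOP2B per TOP2A, TOP1 per TOP1MT and TOP3A per TOP3B. The TOP2B to TOP2A ratio is 0.826 to 0.865 in JJN3 with DMSO and 1.84 to 1.90 with THZ1, while the ratio of TOP1 to TOP1MT is highest, 15.67 and 16.01, in the libraries labelled H929 THZ1.

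The promoters of the type II genes are shown because the genes moved apart in JJN3. Each is the 250 bases before a RefSeq start (table of GRCh38.p14), matched exactly and at a single place in GRCh37. The TOP2A match is at chr17:38574149-38574398 and the TOP2B match at chr3:25706399-25706648, both on the minus strand. RefSeq listed 2 promoters for TOP2B, and only the one with the most upstream start was read. Capitals mark matches to ATTGG, the reverse complement of the CCAAT box that the factor NF-Y binds, searched on both strands.
TOP2A promoter: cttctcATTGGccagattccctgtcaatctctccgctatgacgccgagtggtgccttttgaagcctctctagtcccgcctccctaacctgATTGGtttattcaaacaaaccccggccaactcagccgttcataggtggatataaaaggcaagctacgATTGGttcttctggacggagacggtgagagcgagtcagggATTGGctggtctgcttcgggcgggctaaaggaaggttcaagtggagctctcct
TOP2B promoter: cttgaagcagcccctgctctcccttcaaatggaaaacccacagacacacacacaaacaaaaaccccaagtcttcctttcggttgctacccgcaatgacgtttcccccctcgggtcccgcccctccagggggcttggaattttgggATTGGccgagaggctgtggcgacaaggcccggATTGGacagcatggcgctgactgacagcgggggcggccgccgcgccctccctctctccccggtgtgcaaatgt
The TOP2A window held 4 matches and the TOP2B window 2, all of them as ATTGG and 0 as CCAAT on the gene's strand. At least 4 matches occurred in 0.874% of the 35116 RefSeq promoters, at least 2 in 9.53% and at least 1 in 32% of them. The promoters of TOP1, TOP3A and TOP3B held 0 matches in the same window. A match is a description of the letters and does not show that a factor was bound in these cells.

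The type I genes TOP1 and TOP1MT, which share a catalytic domain and differ in where the enzyme goes, also separated in JJN3. TOP1 (ENSG00000198900, GRCh37 chr20:39657462-39753127, plus strand) was at 461 and 424 CPM with DMSO and at 655 and 614 CPM with THZ1. TOP1MT (ENSG00000184428, GRCh37 chr8:144386554-144442149, minus strand) was at 182 and 184 CPM with DMSO and at 95.6 and 107 CPM with THZ1. Neither gene's groups overlapped. The log2 fold change was 0.54 for TOP1 (SE 0.092, adjusted p = 0.000493) and -0.84 for TOP1MT (SE 0.084, adjusted p = 1.16e-05) by edgeR's quasi-likelihood test. The TOP1 call rested on the fold limit: the log2 fold change was 0.46 without DMSO replicate 2 (adjusted p = 0.0272), 0.49 without THZ1 replicate 1 (adjusted p = 8.65e-05), 0.49 with no filter on low counts and 0.43 with total counts. Of the 50-base windows inside TOP1 exons 6.36% had another copy in the genome, so its uniquely mapped counts leave out part of the transcript, and TOP1MT had 0 such windows. The processed pseudogene TOP1P1 had 0 counts in all 8 libraries.

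The remaining type I genes had the lowest CPM of the 6 in JJN3. TOP3A (ENSG00000177302, GRCh37 chr17:18174742-18218321, minus strand) was at 87.6 and 91.6 CPM in JJN3 with DMSO and at 61.8 and 67.2 CPM with THZ1. TOP3B (ENSG00000100038, GRCh37 chr22:22311397-22337210, minus strand) was at 12.8 and 9.99 CPM with DMSO and at 4.65 and 5.34 CPM with THZ1. The groups did not overlap for either gene. TOP3B fell by 1.17 on the log2 scale (SE 0.183, adjusted p = 0.000245 by edgeR's quasi-likelihood test), the largest change of the 6 genes. Of the genes tested, 4.59% had a more negative log2 fold change. TOP3A had a log2 fold change of -0.46 (SE 0.083, adjusted p = 0.000692), which passed the test but not the fold limit, and it passed both without DMSO replicate 1 (-0.51), without THZ1 replicate 2 (-0.52) and with total counts (-0.56). TOP3B rests on 76 to 247 counts in a JJN3 library, its exons share 6024 bases (90.8%) with the opposite-strand gene PPM1F-AS1, and 17.8% of its windows have another copy, 950 of 1040 copies lying in the pseudogene TOP3BP1. PPM1F-AS1 had 0 to 12 counts and TOP3BP1 at most 1 count in any library. Whether counting used strand is not stated in the sources used here, so TOP3B reads cannot be fully told from those of its antisense partner.

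In all, 3 of the 6 genes were lower in JJN3 after THZ1 (TOP1MT, TOP2A, TOP3B) and 2 were higher (TOP1, TOP2B). Across the genes tested in JJN3, 21.3% were called lower and 20.6% higher, and 79.9% had groups that did not overlap, as all 6 topoisomerase genes had. The median log2 fold change of the 6 genes was -0.51, beside -0.00 for all genes tested. The type II pair and the TOP1 pair each held 1 gene higher and 1 lower, and both TOP3 genes had lower values with THZ1.

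**Figure D2:**
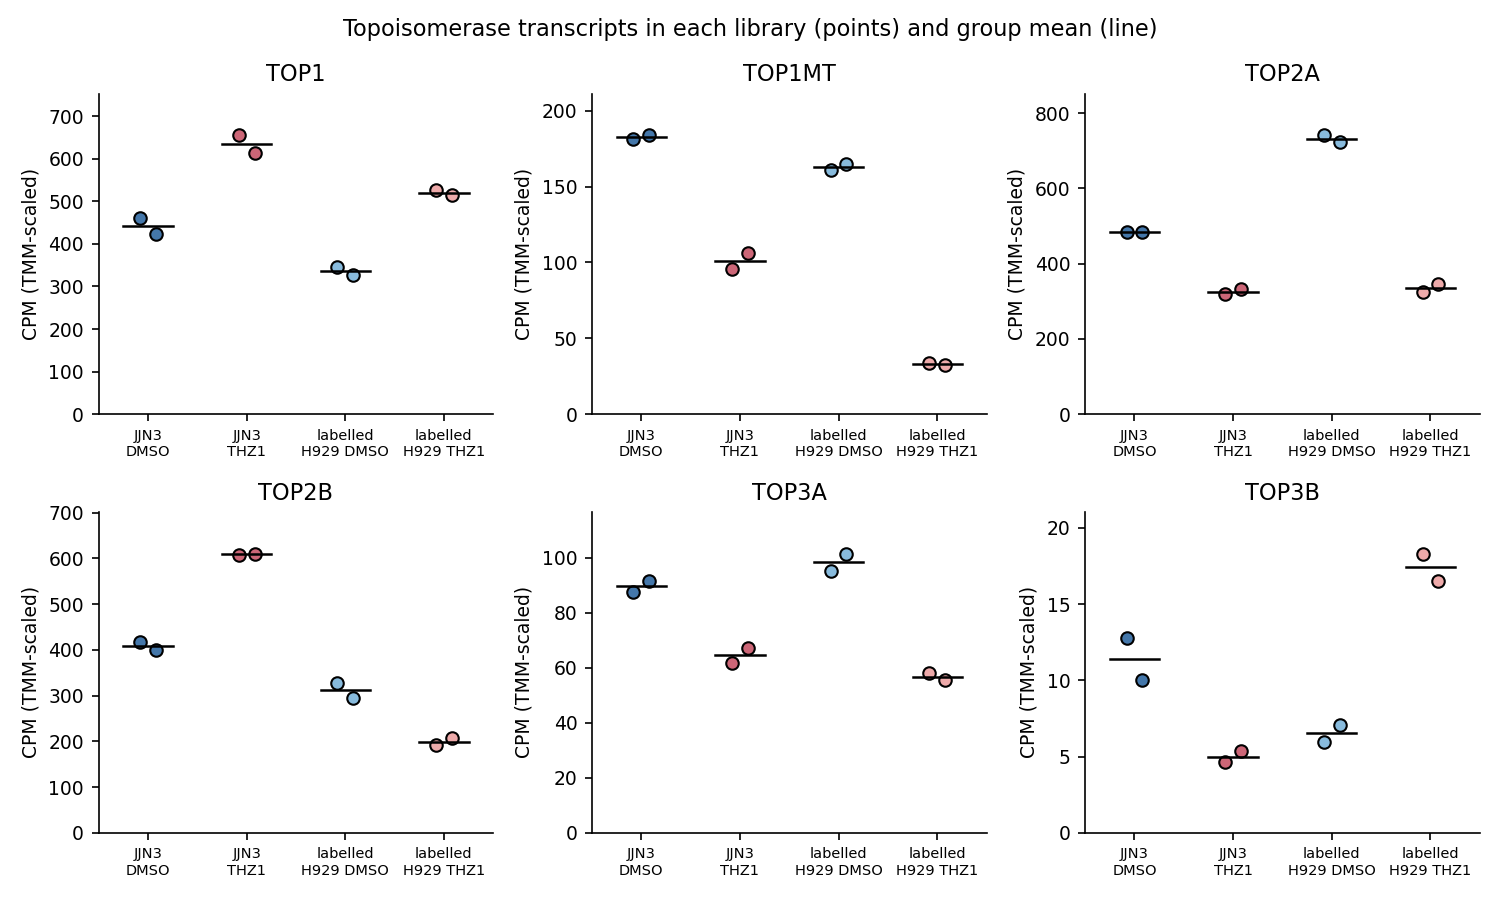
Level of each topoisomerase gene in CPM (TMM-scaled, axis from 0) in the 8 libraries, with points for libraries and a line at the group mean. TOP2B is highest in the JJN3 THZ1 libraries (607 and 610 CPM) and lowest in the libraries labelled H929 THZ1 (191 and 208 CPM), and TOP1MT is lowest in the latter (33.5 and 32.1 CPM).

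**Figure D3:**
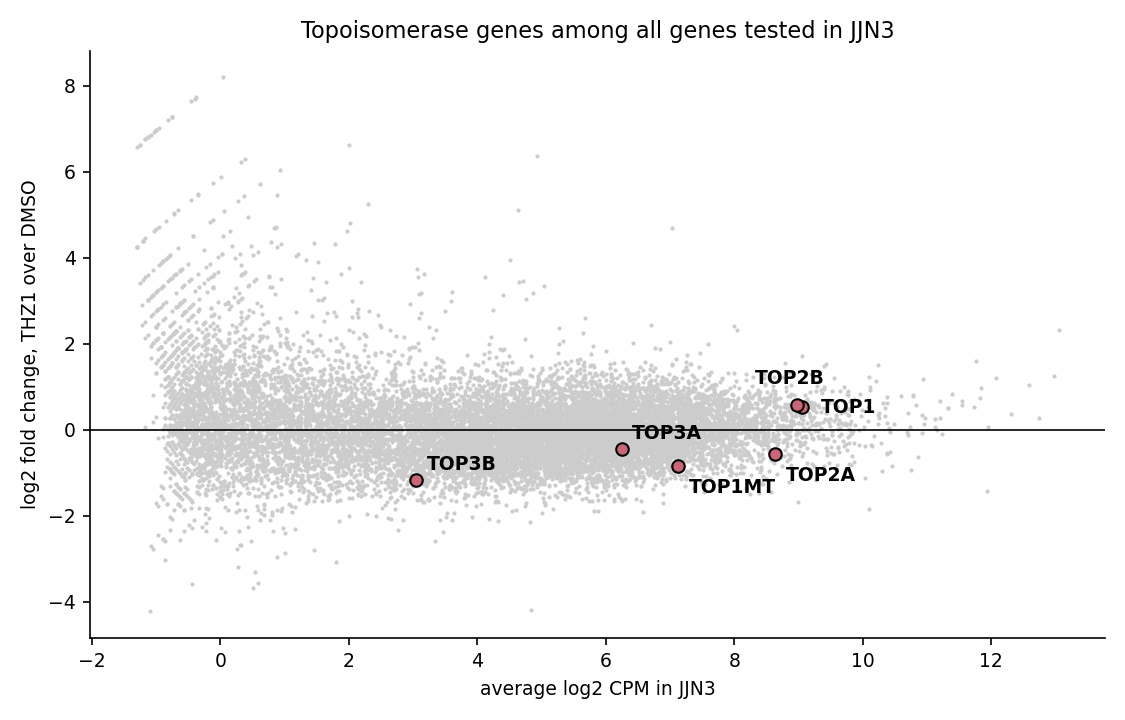
Log2 fold change in JJN3 (THZ1 over DMSO) against average log2 CPM, with 13984 tested genes as grey points and the topoisomerase genes as labelled red points. TOP1 and TOP2B lie above 0 at the high end of abundance, and TOP3B, at -1.17, lies lowest of the 6.

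The libraries labelled H929 were compared in the same way. TOP2B was at 328 and 294 CPM under the DMSO label and at 191 and 208 CPM under the THZ1 label. TOP2A was at 741 and 724 CPM under DMSO and at 325 and 347 CPM under THZ1. Both type II genes were lower in both libraries labelled THZ1, by -0.64 for TOP2B (SE 0.062, adjusted p = 1.07e-07) and -1.12 for TOP2A (SE 0.056, adjusted p = 2.79e-11) on the log2 scale by edgeR's quasi-likelihood test. TOP1 stood at 347 and 327 CPM under DMSO and at 526 and 514 CPM under THZ1, with a log2 fold change of 0.63 (SE 0.054, adjusted p = 2.02e-08). TOP1MT stood at 161 and 165 CPM under DMSO and at 33.5 and 32.1 CPM under THZ1, with a log2 fold change of -2.30 (SE 0.061, adjusted p = 1.49e-14). The mitochondrial gene thus had the largest difference of the 6 under these labels, 4.94-fold lower.

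TOP3A was at 95.2 and 101 CPM under the label H929 DMSO and at 58.1 and 55.4 CPM under H929 THZ1, a log2 fold change of -0.79 (SE 0.063, adjusted p = 8.75e-09). TOP3B was at 5.97 and 7.09 CPM under DMSO and at 18.3 and 16.5 CPM under THZ1, a log2 fold change of 1.42 (SE 0.132, adjusted p = 5.92e-08). The TOP3 genes therefore stood in opposite directions under these labels, and TOP3A counts for each TOP3B count were 15.9 and 14.3 with DMSO and 3.18 and 3.35 with THZ1. Altogether 4 of the 6 genes were lower and 2 higher, beside 32.6% of 14863 genes called lower and 33.1% called higher. For all 6 genes the groups did not overlap, as for 91.0% of the genes tested. The 66 values recomputed under alternatives, including those without H929 DMSO replicate 2, kept their direction and call.

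An interaction term fitted to the 8 libraries together gave the difference between the responses, and 62.0% of 16122 genes differed at an adjusted p under 0.05. TOP2B differed by -1.22 on the log2 scale (SE 0.106, adjusted p = 5.48e-08), with a rise in JJN3 and a fall under the H929 labels. TOP3B differed by 2.60 (SE 0.228, adjusted p = 5.87e-08) in the reverse sense. TOP1MT and TOP2A were lower under both line labels and differed in size, by -1.46 (SE 0.104, adjusted p = 4.98e-09) and -0.55 (SE 0.098, adjusted p = 0.000122). TOP3A differed by -0.32 (SE 0.105, adjusted p = 0.015), and this passed the threshold neither with total counts (adjusted p = 0.189) nor with no filter (adjusted p = 0.141), nor without JJN3 DMSO replicate 1, JJN3 THZ1 replicate 2, H929 DMSO replicate 2 or H929 THZ1 replicate 2 (adjusted p = 0.0567 to 0.116). For TOP1 the difference was 0.11 (SE 0.104, adjusted p = 0.394), and with total counts it was 0.25 (adjusted p = 0.031), where the median of all genes was 0.18.

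**Figure D4:**
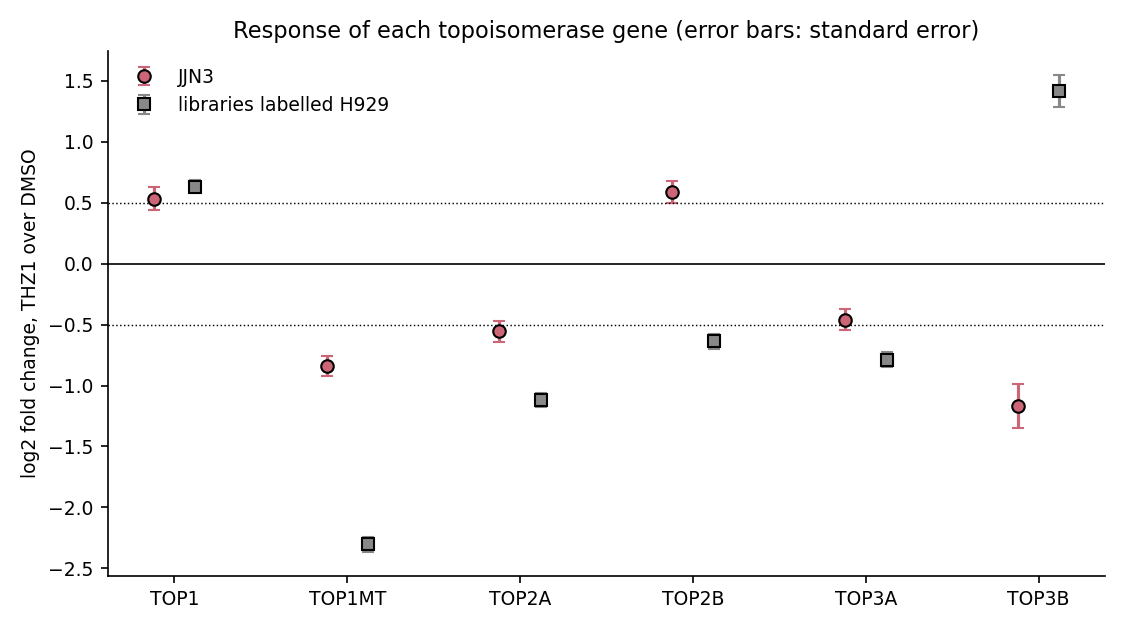
Log2 fold change of each topoisomerase gene, THZ1 over DMSO, in JJN3 (circles) and between the libraries labelled H929 (squares), with bars for the standard error and dotted lines at the fold limit of 0.5. TOP1 sits above 0 for both, TOP1MT, TOP2A and TOP3A below 0 for both, and TOP2B and TOP3B on opposite sides.

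Compared between lines, the DMSO libraries placed TOP2A higher (log2 difference 0.60, adjusted p = 8.24e-07) and TOP3B lower (-0.80, adjusted p = 0.000279) under the label H929 than in JJN3. That was 1 gene higher and 1 lower of the 6, beside 30.8% and 30.7% of genes tested. TOP1 and TOP2B both had a difference of -0.39 (adjusted p = 0.000149 and 0.000174), under the fold limit, and TOP1MT had -0.17 (adjusted p = 0.0399). TOP3A had 0.13 (SE 0.073, adjusted p = 0.107). The libraries of the labels did not overlap for 6 of 6 genes with DMSO and 5 of 6 with THZ1, beside 87.2% of genes tested in each. Between the THZ1 libraries TOP1MT (-1.62, adjusted p = 1.73e-11) and TOP2B (-1.61, adjusted p = 1.68e-11) were lower under the label H929 and TOP3B was higher (1.80, adjusted p = 4.19e-08), beside 32.3% of genes lower and 31.6% higher. TOP2A was at nearly one level in the THZ1 libraries of both labels (0.04, SE 0.069, adjusted p = 0.588), the only neighbours in the order of any gene's levels whose libraries overlapped. TOP1 (-0.29) and TOP3A (-0.19) were under the fold limit there. These contrasts share libraries with the comparisons of treatment.

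Levels were compared between genes per kb of annotated exon (union of exons, GENCODE v44 lifted to GRCh37). In JJN3 with DMSO the order of means was TOP2A at 75.9 CPM per kb, TOP1 at 43.7, TOP1MT at 28.4, TOP2B at 21.9, TOP3A at 10.9 and TOP3B at 1.72. With THZ1 TOP1 led at 62.6 CPM per kb, followed by TOP2A at 51.1, TOP2B at 32.6, TOP1MT at 15.7, TOP3A at 7.84 and TOP3B at 0.752. TOP1 took 23.9% ± 1.1 (SD, n = 2) of the summed per-kb level of the 6 genes in JJN3 with DMSO and 36.7% ± 1.7 with THZ1, and TOP2A 41.6% ± 0.75 and 29.9% ± 0.76. The share of TOP2B was 12.02% ± 0.18 with DMSO and 19.1% ± 0.0073 with THZ1. The order depends on the length used: TOP2B has 18645 bases in its exon union and 7848 in its longest transcript, and by the longest transcript TOP2B, at 77.6 CPM per kb, stood above TOP2A, at 57.2, in JJN3 with THZ1. TOP1MT likewise has 6425 bases against 2029, and by the longest transcript it led in JJN3 with DMSO at 90 CPM per kb.

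The partners of TOP3A form a complex with BLM, a helicase, and the small scaffold proteins RMI1 and RMI2. BLM was at 110 and 102 CPM in JJN3 with DMSO and at 58.5 and 57 CPM with THZ1, and it fell by 0.86 on the log2 scale (adjusted p = 7.78e-06). RMI2 had a log2 fold change of -0.51 (adjusted p = 0.00047) and RMI1 one of -0.41 (adjusted p = 0.00322), under the fold limit. In JJN3 2 of the 3 partners were lower and 0 higher, with a median of -0.51 beside -0.00 for all genes, of which 21.3% were lower. The RMI2 call was lost with DESeq2 or its size factors (both -0.50), with a filter of 1 CPM (-0.49), without DMSO replicate 2 (-0.48) and without THZ1 replicate 1 (-0.50). RMI1 passed the fold limit with total counts (-0.51) and without THZ1 replicate 2 (-0.52). Of the 5 RecQ helicases, BLM's family, 2 were lower, BLM and RECQL5 (-0.64), and the median was -0.40.

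TOP3B works with the Tudor protein TDRD3 and with the FMR1 family of RNA-binding proteins. Of these 4 partners 1 was higher in JJN3 and 0 were lower, beside 20.6% and 21.3% of all genes tested. The higher one was FMR1 (0.76, adjusted p = 2.40e-05), and TDRD3 had a log2 fold change of -0.24 (adjusted p = 0.0568). The median of the 4 was 0.28, while TOP3B itself fell.

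Enzymes that free DNA from a trapped topoisomerase were listed as 14 genes, of which 3 were lower in JJN3 and 0 higher (median -0.07), and the number lower is near the 21.3% of all genes tested. TDP1, which releases TOP1 from DNA, was at 58.1 and 57.7 CPM with DMSO and at 25.2 and 33.4 CPM with THZ1, a fall of 0.96 on the log2 scale (adjusted p = 4.99e-05). The single-strand break repair genes XRCC1 (-0.65) and LIG3 (-1.08) were lower as well. TDP2, which releases TOP2, had a log2 fold change of -0.26 (adjusted p = 0.0228), under the fold limit. TOP1 was thus higher and TDP1 lower in both THZ1 libraries of JJN3. Of 7 end joining genes tested of 8 listed, XRCC4 alone was called, lower at -1.35 (adjusted p = 2.55e-06), beside the same 21.3%. Their median was -0.07.

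TOP2B sits at chromatin loop anchors with CTCF and cohesin. Of 8 such genes 3 were higher in JJN3, the cohesin loader NIPBL (1.29), and the cohesin subunits RAD21 (0.83) and STAG2 (0.72), and 1 was lower, CTCF (-0.51), with a median of 0.13. Of all genes tested 20.6% were higher and 21.3% lower. RAD21 was at 757 and 712 CPM with DMSO and at 1269 and 1307 CPM with THZ1. The CTCF call was lost with DESeq2 or its size factors, with a filter of 1 CPM, and without DMSO replicate 1 or THZ1 replicate 1.

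TOP1MT was compared with 10 genes of mitochondrial DNA upkeep, of which 4 were lower in JJN3 and 0 higher (median -0.37), beside 21.3% and 20.6% of all genes tested. These were TEFM (-0.97), a mitochondrial transcription elongation factor, C10orf2 (-0.96), which encodes the Twinkle helicase, SSBP1 (-0.70), the single-strand binding protein, and TFB2M (-0.61), a transcription factor of mitochondria. POLRMT, the mitochondrial RNA polymerase, had -0.21 and TFAM 0.06, neither of them called.

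TOP2A was set beside 20 genes of the G2 and M phases, since its transcript is cell cycle regulated. In JJN3 4 were lower, AURKB (-1.49), CCNB1 (-1.07), CCNA2 (-0.62) and BUB1 (-0.503, just beyond the fold limit). Another 3 were higher, CENPE (0.80), CENPF (0.77) and TPX2 (0.54), and the median of the list was -0.04. Neither count exceeds the share over all genes. MKI67, the usual proliferation marker, was not called (0.41, adjusted p = 0.0122). The 20 genes did not share a direction, and the part of the cell cycle in the TOP2A value was not tested. Of 8 genes tied to R-loops, RNASEH2A (-1.65) and SRSF1 (-1.47) were lower and 0 were higher, beside 21.3% and 20.6% of all genes tested. Their median was -0.18.

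**Figure D5:**
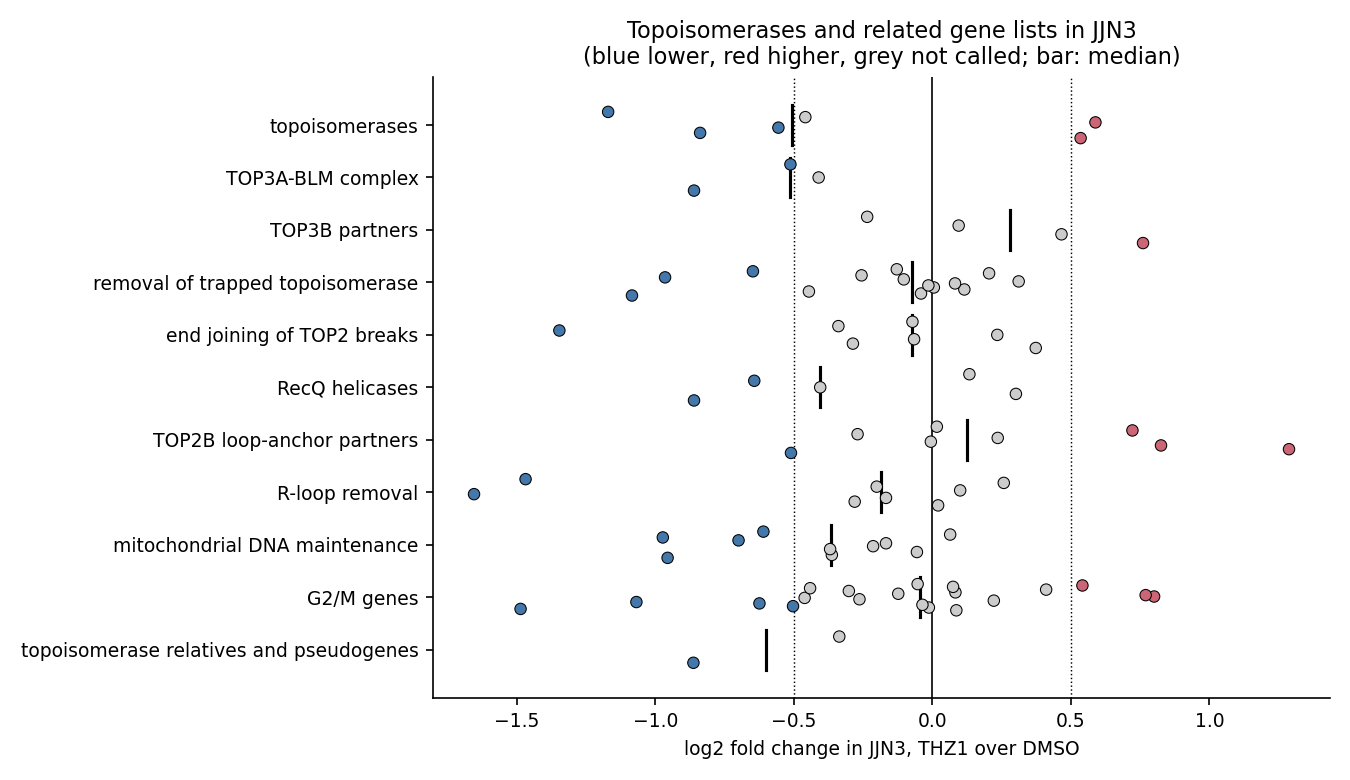
Log2 fold change in JJN3 (THZ1 over DMSO) of each tested gene in the topoisomerase list and 10 related lists, 1 point per gene, blue for called lower, red for called higher and grey for not called, with a bar at the list median. The loop-anchor list holds 3 red points and 1 blue, and the mitochondrial DNA list 4 blue and 0 red.

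Between the libraries labelled H929, 5 of the 10 mitochondrial DNA genes were lower and 0 higher, and 4 of the 20 G2 and M genes were lower and 7 higher. All list counts under these labels stand beside 32.6% of genes tested called lower and 33.1% called higher, so the 7 G2 and M genes are near that share. RMI2 alone of the BLM complex was lower (-0.53), and it lost that call without H929 DMSO replicate 1 and with total counts (both -0.48). Of the loop-anchor genes 3 were lower and 2 higher, with RAD21 (0.81) and STAG2 (1.02) higher as in JJN3, and NIPBL at 0.28, not called. CTCF was lower (-0.502), just beyond the fold limit as in JJN3. TDP1 was lower (-0.88) and MRE11A, a nuclease, higher (2.03) among the 14 trapped-enzyme genes. The end joining list had 1 gene lower and 3 higher, the RecQ list 1 and 1, the TOP3B partners 1 and 1, and the R-loop list 3 and 2.

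Neighbouring genes gave a local comparison. NGLY1, the nearest protein-coding gene beyond the TOP2B promoter at 54034 bases, was lower in JJN3 (-0.51, adjusted p = 0.000371) and higher between the H929 labels (0.93), opposite to TOP2B in both. RARB, which ends 45 bases from TOP2B on the plus strand, did not pass the filter on low counts. PLCG1, 12472 bases beyond TOP1, was higher in JJN3 (0.57) and under the H929 labels (2.75), as TOP1 was. SMCR8, whose start lies 285 bases from that of TOP3A on the other strand, was higher in JJN3 (0.51) where TOP3A had -0.46, and lower between the H929 labels (-0.78) where TOP3A was lower. ZNF696, 4431 bases from TOP1MT, was lower in both (-0.92 and -1.55). IGFBP4, 25553 bases from TOP2A, was lower in JJN3 (-0.87), and PPM1F, 4176 bases from TOP3B, had -0.46 in JJN3, under the fold limit, and was higher under the H929 labels (0.76). Other neighbours were MIEF2 and RHPN1, not called in JJN3, and GJD3 and VPREB1, not tested there.

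The genes most like each member over the 8 libraries were ranked by Pearson's r of log2 CPM among 9674 abundant genes. The 8 points share lines and treatments, so r is a description and mostly tracks differences between groups. TOP2B was followed most closely by ITPR1, an intracellular calcium channel (r = 0.996), SIK2, a kinase (r = 0.996), and DSTN, an actin depolymerizing factor (r = 0.995). TOP2A was followed by SOX12 (r = 0.999), SORD (r = 0.998) and FAH (r = 0.996), of which SORD and FAH encode metabolic enzymes. The closest to TOP1 were TRAPPC1, GALNT10 and MICAL3, to TOP1MT LZIC, CBS and ZFP90, to TOP3A TRIP10, MRPL11 and PEX5, and to TOP3B FAM81A and ZFP64, with r from 0.987 to 0.997.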

How the data were processed

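RNA of the 8 libraries was sequenced by the authors as single-end reads of 50 bases. The authors deposited raw read counts per Ensembl gene, without normalization. The submitters' processing notes name STAR 2.5.2a, featureCounts, DESeq2 1.12.4 and hg19, and per the paper's methods only uniquely mapping reads were kept; the strand setting is not given in the sources used here. The authors' DESeq2 tables hold fold changes and p-values that were not used; their symbol column (unit: other) alone was read. From the counts, edgeR 4.0.16 in R 4.3.3 was run within each line (TMM, filterByExpr, quasi-likelihood test, Benjamini-Hochberg over all genes tested); interaction and line contrasts used all 8 libraries. The test was checked on simulated data. The upper limit that a count of 0 allows, 3 counts, was 0.156 to 0.172 CPM of total counts, which covers counting error only. Alternatives were DESeq2 1.42.0, other scalings, filters and fold limits, a joint fit of the 8 libraries, a block for the replicate number, each library left out, and other lengths. Named genes were the 6 members, 6 direct partners, up to 3 called genes with the largest change in JJN3 per list, the 3 most correlated genes (average log2 CPM of at least 3, prior count 2) and nearest protein-coding genes, of which some are not reported here. Other called genes of a list, and MKI67, POLRMT, TFAM, MRE11A and the genes of the label check named beyond the marker lists, were named after their values were seen. The members and lists were chosen with earlier results of these data known. Primer sequences were read from the study's primer sheet and promoters from RefSeq; 5 of the 6 members' promoters were read, and none was printed from chromosome 8. Protein sequences were not used here.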

Additional observations from a re-analysis of the deposited data

Results flagged for a closer look

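The results here were picked out because the response to THZ1 differed between JJN3 and the libraries labelled H929 by the interaction term of edgeR's quasi-likelihood test, adjusted over 16122 genes by the Benjamini-Hochberg method, of which 62.0% differed. All differences are the H929-labelled response minus the JJN3 response on the log2 scale, and the part of cell identity in them cannot be told apart from treatment.

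Among the topoisomerase genes, TOP1MT differed by -1.46 (adjusted p = 4.98e-09), TOP2A by -0.55 (adjusted p = 0.000122), TOP2B by -1.22 (adjusted p = 5.48e-08), TOP3A by -0.32 (adjusted p = 0.015) and TOP3B by 2.60 (adjusted p = 5.87e-08). TOP2B and TOP3B changed direction between the line labels, in both libraries of each group. The TOP3A difference did not pass without any 1 of JJN3 DMSO replicate 1, JJN3 THZ1 replicate 2, H929 DMSO replicate 2 or H929 THZ1 replicate 2 (adjusted p = 0.0567 to 0.116).

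Among the direct partners, BLM differed by 0.70 (adjusted p = 1.74e-05), being lower in JJN3 (-0.86) and at -0.17, not called, under the H929 labels. RMI1 differed by 0.48 (adjusted p = 0.00456) and TDP2, the enzyme that releases trapped TOP2, by 0.51 (adjusted p = 0.00136), and neither was called under either label.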

How the results depend on the processing

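No value of the 6 genes reversed under any alternative. In JJN3, 58 of 66 recomputed values kept their call, 5 lost it and 3 gained it, all through the fold limit; under the H929 labels 66 of 66 kept it, and between lines 84 of 84 for each treatment. In JJN3, 1 gene was lower and 0 higher beyond a log2 fold change of 1, 0 were higher with total counts (TOP2B at 0.49) and 1 with no filter, and the number higher ranged from 1 to 2 when each library was left out (1 without JJN3 DMSO replicate 2 or THZ1 replicate 1). Beyond 1, the H929 labels gave 2 lower and 1 higher, and the DMSO libraries of both lines 0 lower and 0 higher. By adjusted p alone, 4 genes were lower under the label H929 with DMSO, and 4 with THZ1. Per kb of exon the TOP2B to TOP2A ratio was 0.289 and 0.639 in JJN3 with DMSO and THZ1, and 0.145 and 0.203 under the H929 labels. Total counts moved the median of all genes to -0.10 in JJN3. Replicate numbers did not pair samples (correlation of deviations -0.0163 to 0.0118). With the replicate block no call of the 6 genes changed, the TOP2B log2 fold change in JJN3 was 0.59 and under the H929 labels -0.64, and calls over all genes were 3013 lower and 2889 higher in JJN3, against 2972 and 2877. The limits are 2 libraries a group, relative counts, unstated strand, and, for TOP3B, 76 to 348 counts and exons shared with an antisense gene.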

Other observations

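Relatives of the topoisomerases outside the 6 genes were read as well. C11orf80, which encodes the TOP6B-like partner of the meiotic nuclease SPO11, was counted 320 and 363 times in the JJN3 DMSO libraries, against 167 and 161 times with THZ1, and it was lower there (log2 fold change -0.86, adjusted p = 0.000288 by edgeR's quasi-likelihood test). Its counts were 160 and 155 under the label H929 DMSO, against 223 and 195 under H929 THZ1 (0.36, not called). SPO11 itself had 0 counts in all 8 libraries, so a level above the 3-count limit of 0.156 to 0.172 CPM was not detected. TOPBP1, a replication checkpoint protein that binds TOP2B, was at 422 and 391 CPM in JJN3 with DMSO and at 309 and 328 CPM with THZ1, with log2 fold changes of -0.34 in JJN3 and -0.33 under the H929 labels, both under the fold limit.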
